A study of Mus musculus with 8 samples.

Results

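The genes described are 9 steroid hormone receptors, membrane partners and 1 target: the oestrogen receptors Esr1 and Esr2, the membrane oestrogen receptor Gper1, the oestrogen-responsive gene Greb1, the progesterone receptor Pgr, the heme-binding membrane proteins Pgrmc1 and Pgrmc2, the glucocorticoid receptor Nr3c1 and the mineralocorticoid receptor Nr3c2. They were found by symbol among the 19884 genes of the deposited count table, where each of the 9 symbols matched 1 gene, and all 9 passed the filter on low counts. Total RNA was sequenced from 4 whole brains and 4 whole uteri of C57BL/6J female mice on day 4 of gestation, all untreated and each library from 1 animal, with stranded libraries depleted of ribosomal RNA. Pregnancy was checked by flushing blastocysts from the uterus, so both organs come from pregnant animals and no group without pregnancy stands beside them. The labels name no genetic alteration in either group.

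Steroid hormones cross the cell membrane and bind receptors that are themselves transcription factors. Unbound receptors are held by HSP90 and its partners, and bound receptors attach to response elements in DNA and recruit coactivators. In the mouse uterus before implantation, ovarian oestrogen and progesterone act through Esr1 and Pgr in epithelium and stroma, while in the brain the same receptors sit in restricted nuclei, and Nr3c1 and Nr3c2 both bind corticosterone. Gper1 and the 2 Pgrmc proteins are membrane proteins outside the nuclear receptor family.

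Library totals ran from 40115616 to 47790178 counts in brain and from 35394603 to 40254254 in uterus. Summed markers matched the organ labels: the 6 neuron markers came to 5906 to 6120 CPM (counts scaled to library size, with sizes adjusted by TMM) in brain and 2.19 to 4.85 in uterus, while the 6 uterine stroma markers came to 8759 to 10840 in uterus and 115 to 120 in brain. The pituitary markers Gh, Prl and Cga were at 0 in all uterine libraries, but they did not mark every brain. Gh and Prl were also at 0 in brain libraries 1 and 4, and Cga in brain libraries 2 and 3. The summed pituitary list was 3.29 to 6.69 CPM in brain, of which Tshb held 3.07 to 3.67. Among the genes tested the median log2 difference, uterus over brain, was 0.01, and 0.27 with upper-quartile scaling or library totals alone. The calls over all genes moved with it, from 6988 higher and 7001 lower in uterus to 8179 and 5949 with library totals alone.

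All 9 genes passed the edgeR quasi-likelihood test with Benjamini-Hochberg adjustment over 16074 genes, against a background of 87.0% of all genes. Of these, 4 were higher in uterus (Esr1, Pgr, Greb1 and Pgrmc2) where 43.5% of all genes were, and 5 were higher in brain (Esr2, Gper1, Pgrmc1, Nr3c1 and Nr3c2) where 43.6% were. A test against a 2-fold difference was passed by 4 of the 9 (Esr1, Pgr, Greb1 and Nr3c2), against 49.3% of all genes. In 8 of the 9 the libraries of the 2 organs did not overlap in CPM on TMM-adjusted library sizes, which held for 84.1% of all genes. Read against these backgrounds, the counts are no result about these 9 genes, and their levels and sizes of difference follow.

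**Figure D1:**
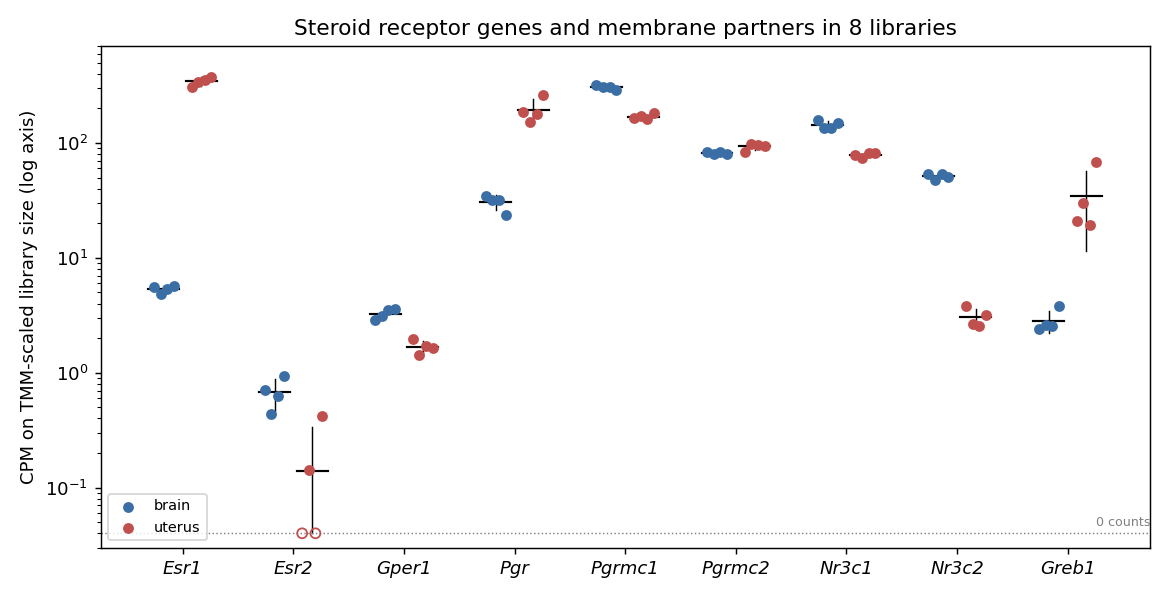
CPM of each of the 9 genes (log axis) in the 4 brain and 4 uterus libraries, 1 point per animal, with libraries at 0 counts marked as such. Esr1 sits between 307 and 375 CPM in uterus and between 4.87 and 5.65 in brain. Pgrmc2 is the gene whose organs overlap on this TMM-adjusted scale.

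**Figure D2:**
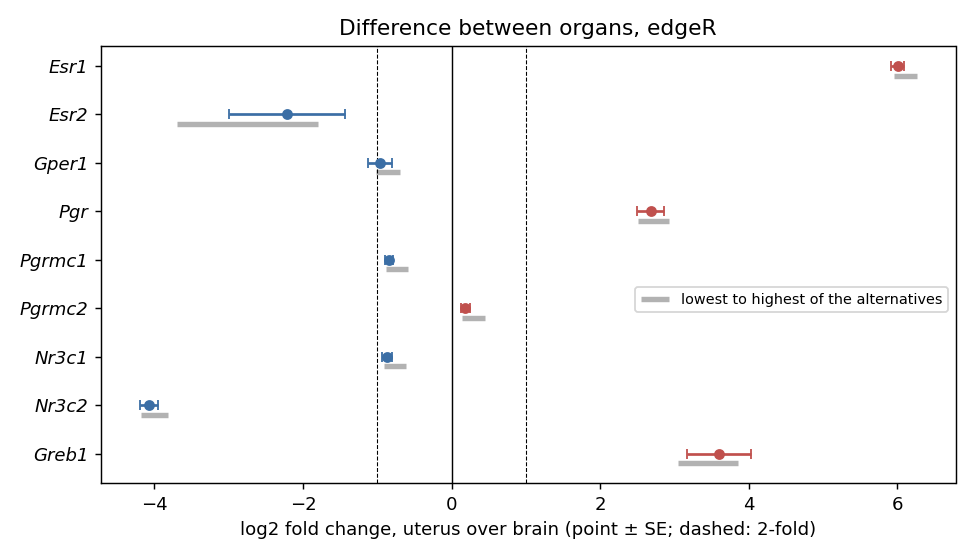
Log2 difference of each gene, uterus over brain, from edgeR (point with SE), with the range over the alternative analyses as a grey bar and dashed lines at a 2-fold difference. Esr1 lies at 6.00 and Nr3c2 at -4.07, while Esr2 has the widest bar, from -3.69 to -1.80.

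Esr1 encodes oestrogen receptor alpha, the receptor through which oestrogen drives uterine growth (ENSMUSG00000019768, a protein-coding gene at chr10:4611593-5005614 of GRCm38, plus strand). Its level was 307, 341, 354 and 375 CPM in uterus libraries 1 to 4, and 5.56, 4.87, 5.41 and 5.65 CPM in brain libraries 1 to 4. Every uterus was far above every brain, and within each organ the animals lay close together. The means were 344 ± 28.4 CPM in uterus and 5.37 ± 0.352 in brain (SD, n = 4 each), a log2 difference of 6.00 ± 0.09 (SE, edgeR adjusted p = 6.4e-12). Alternative analyses gave 5.96 to 6.26. In whole organs, fewer cells of a type and less RNA per cell cannot be told apart, here and for each gene below.

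Esr2 encodes oestrogen receptor beta, the second nuclear oestrogen receptor (ENSMUSG00000021055, protein coding, chr12:76120419-76177259, minus strand). It was the scarcest of the 9 genes in both organs, with 26, 19, 27 and 40 counts in brain libraries 1 to 4 and 0, 6, 0 and 18 counts in uterus libraries 1 to 4. On the CPM scale these were 0.702, 0.438, 0.624 and 0.946 in brain, and 0, 0.141, 0 and 0.420 in uterus. The highest uterus stayed just below the lowest brain on this TMM-adjusted scale, so the organs did not overlap there. Only 24 counts stand behind the 4 uteri. With library totals alone the organs overlapped, as uterus library 4 held 18 of 40254254 counts and brain library 2 held 19 of 47790178. A count of 0 allows up to 0.0755 CPM in uterus library 1 and 0.0761 in uterus library 3.

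The log2 difference for Esr2 was -2.21 ± 0.78 (SE, edgeR adjusted p = 0.022), and it did not pass the 2-fold test (edgeR adjusted p = 0.08). Without brain library 4 the call was lost (-2.01, adjusted p = 0.0623, edgeR). Without uterus library 4 the log2 difference was -3.69, and over the 15 alternatives that kept the gene it ran from -3.69 to -1.80, with 14 past the threshold. Uterus library 4, which held 18 of the 24 uterine counts, also had the highest neuron marker sum of the uteri (4.85 CPM against 2.19 to 2.82 in the others) and the highest level of the oviduct gene Ovgp1 (51.5 CPM against 12.9, 32.1 and 26.0). Inha and Cyp11a1 of the same ovary and oviduct list were lowest in this library (4.68 and 0.0932 CPM). On average that list deviated by -0.04 log2 units there. Of the neuron markers, Snap25, Syt1, Slc17a7 and Gad1 were highest in uterus library 4. Rbfox3 was lowest there (0.932 CPM against 1.01 to 1.75), and Nefl was highest in uterus library 3. The part of the neuron markers or of Ovgp1 in the Esr2 counts was not tested.

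Gper1 encodes a G protein-coupled receptor that binds oestrogen at membranes (ENSMUSG00000053647, protein coding, chr5:139423151-139427800, plus strand). It stood at 2.86, 3.14, 3.51 and 3.59 CPM in brain libraries 1 to 4 and at 1.96, 1.43, 1.70 and 1.66 in uterus libraries 1 to 4. All brains were above all uteri. The log2 difference was -0.96 ± 0.16 (SE, edgeR adjusted p = 0.00026), which the 2-fold test did not pass, and the alternatives ran from -1.02 to -0.70. Both membrane and beta receptor genes were thus lower in uterus, opposite to Esr1.

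Greb1, whose product is a chromatin-bound cofactor of oestrogen receptor alpha and a classic oestrogen-induced gene, was measured at ENSMUSG00000036523 (protein coding, chr12:16670615-16800886, minus strand). Uterus libraries 1 to 4 held 20.7, 29.9, 19.1 and 68.2 CPM, and brain libraries 1 to 4 held 2.40, 2.63, 2.54 and 3.78. Every uterus was above every brain, and library 4 was the highest in each organ. The log2 difference was 3.60 ± 0.43 (SE, edgeR adjusted p = 1.9e-05), and 3.05 without uterus library 4, the lowest of the alternatives. The exons of Greb1 share 736 bases (7.68% of their length) with the antisense gene Gm48140, which is not used here, and no source used here gives the strand setting of the counting.

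Greb1 varied more between uteri than nearly all genes of similar level: its coefficient of variation of 66.6% was at the 99.6th percentile among genes of the same decile of level. In brain it was 22.4%, at the 90.9th percentile. The oestrogen-induced list, Greb1 not among its 14 genes, deviated by -0.01, -0.13, 0.01 and 0.13 log2 units on average in uterus libraries 1 to 4, where Greb1 deviated by -0.53, -0.00, -0.65 and 1.18. Its members went both ways: Sprr2f was highest in library 4 (60.9 CPM against 2.56 to 12.6 in the others) and C3 was lowest there (148 against 237 to 375). Summed markers of dividing cells were 687, 842, 438 and 816 CPM in the same libraries. The sum was lowest in library 3, where Greb1 was lowest too, and highest in library 2. Of its genes Mki67 alone was highest in library 4 (287 CPM against 272 in library 2). The uterine epithelium markers came to 587, 601, 650 and 708 CPM. The part of dividing or epithelial cells in the Greb1 values was not tested.

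Pgr encodes the nuclear progesterone receptor, which in the uterus is itself induced by oestrogen (ENSMUSG00000031870, protein coding, chr9:8899833-8968611, plus strand). It reached 186, 151, 179 and 263 CPM in uterus libraries 1 to 4 and 34.3, 32.0, 31.7 and 23.8 in brain libraries 1 to 4. The organs did not overlap, and library 4 was the highest uterus and the lowest brain. The means of 195 ± 48.1 and 30.5 ± 4.56 CPM (SD, n = 4 each) gave a log2 difference of 2.68 ± 0.18 (SE, edgeR adjusted p = 1.8e-07), and 2.51 without uterus library 4. Pgr also varied more between animals than most genes of like level, at the 95.8th percentile in uterus and the 97.8th in brain. The progesterone-induced list deviated by 0.06, 0.09, 0.15 and -0.30 log2 units on average in uterus libraries 1 to 4. Its members did not all do so: Hand2 was lowest in library 4 (60.9 CPM), whereas Hoxa10 at 363 CPM there lay within the 324 to 406 of the others. Uterus library 4 had the highest neuron sum and Ovgp1 of the uteri, although the neuron marker Rbfox3 was lowest there. In the same library the ovary and oviduct list deviated by -0.04. Uterus library 4 was also low in Tac2 (1.56 CPM against 14.9 to 17.2 in the others). The part of these in the Greb1 and Pgr values was not tested.

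**Figure D3:**
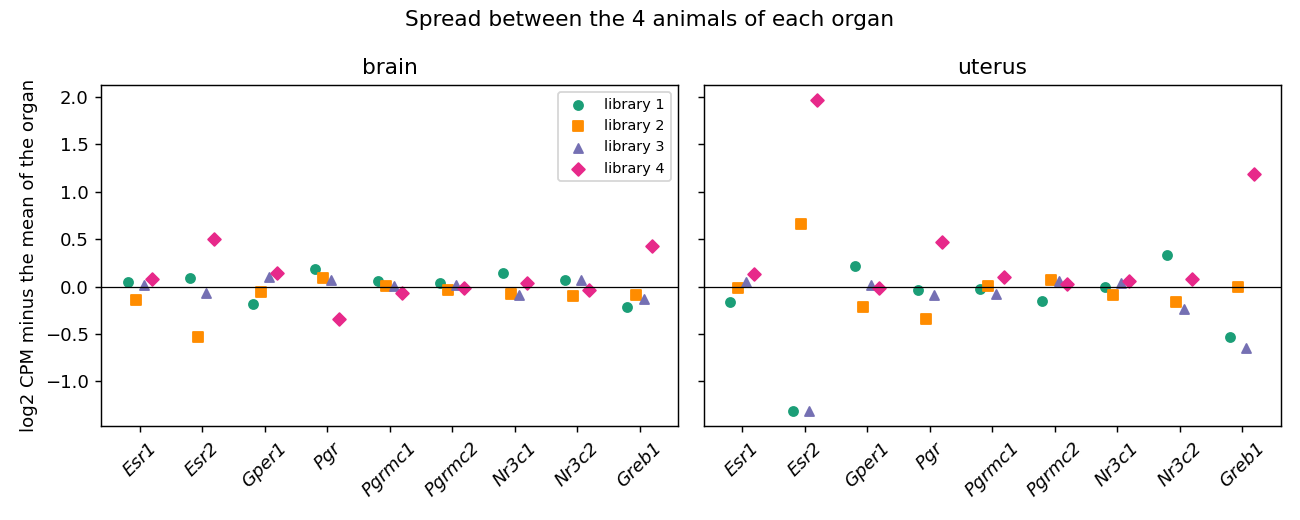
Log2 CPM (2 counts added as a prior) of each library minus the mean of its organ for the 9 genes, with 1 symbol per library. Uterus library 4 lies at 1.18 for Greb1 and 0.47 for Pgr, whereas Esr1, Pgrmc1, Pgrmc2 and Nr3c1 stay close to 0 in all libraries.

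Pgrmc1 and Pgrmc2 encode heme-binding proteins of the membrane-associated progesterone receptor (MAPR) family, which take part in sterol metabolism and in progesterone responses that do not need the nuclear receptor. Pgrmc1 (ENSMUSG00000006373, chrX:36598206-36606079, plus strand) had 317, 306, 305 and 290 CPM in brain libraries 1 to 4 and 166, 171, 161 and 182 in uterus libraries 1 to 4. All brains were above all uteri, at a log2 difference of -0.84 ± 0.06 (SE, edgeR adjusted p = 1.4e-07). The alternatives ran from -0.88 to -0.58, and the 2-fold test was not passed.

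Pgrmc2 (ENSMUSG00000049940, chr3:41066326-41083046, minus strand) had 84.0, 80.1, 82.8 and 80.8 CPM in brain and 83.7, 97.4, 96.8 and 95.0 in uterus, libraries 1 to 4. On this TMM-adjusted scale uterus library 1 lay within the brain range and the other 3 above it. With library totals alone every uterus lay above every brain. The log2 difference was 0.19 ± 0.06 (SE, edgeR adjusted p = 0.0095), and it was 0.44 with library totals alone, so its size rests on the scaling. Against the median of all genes under the same scaling it was 0.17 in both fits.

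The sequences just upstream of both genes are shown because the 2 genes encode related proteins and were the most abundant pair in brain. Pgrmc1 was lower in uterus, while Pgrmc2 was higher by a small amount that rests on the scaling. The part of these sequences in either difference was not tested. The sequences are the 250 bases before the annotated start in RefSeq (GRCm38.p6, same chromosome sequence as GRCm38), 5′ to 3′ on the gene's strand. Capitals mark GC boxes, the letters GGGCGG on either strand (CCGCCC when read on the other).
Pgrmc1, chrX:36597943-36598192: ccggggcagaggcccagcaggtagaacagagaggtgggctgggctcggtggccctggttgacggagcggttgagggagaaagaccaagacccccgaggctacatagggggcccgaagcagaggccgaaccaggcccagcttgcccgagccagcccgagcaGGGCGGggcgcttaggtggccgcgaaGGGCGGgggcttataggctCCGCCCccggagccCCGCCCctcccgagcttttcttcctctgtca
Pgrmc2, chr3:41083047-41083296: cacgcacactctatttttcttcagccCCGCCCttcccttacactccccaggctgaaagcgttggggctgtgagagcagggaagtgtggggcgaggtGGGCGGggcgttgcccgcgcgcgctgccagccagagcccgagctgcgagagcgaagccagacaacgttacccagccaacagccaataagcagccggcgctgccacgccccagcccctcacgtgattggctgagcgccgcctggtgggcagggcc
Pgrmc1 held 4 GC boxes and 18 CpG pairs, and Pgrmc2 held 2 GC boxes and 20 CpG pairs. Over the 32851 mouse promoters in that table, 32.7% held a GC box in the same window and the median number of CpG pairs was 6. No TATAAA was found in either, and 12.4% of all promoters held one.

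Nr3c1 encodes the glucocorticoid receptor, found in most tissues (ENSMUSG00000024431, protein coding, chr18:39410545-39519421, minus strand). Brain libraries 1 to 4 had 159, 136, 135 and 148 CPM and uterus libraries 1 to 4 had 79.0, 74.4, 81.3 and 82.3. The organs did not overlap. The log2 difference was -0.87 ± 0.06 (SE, edgeR adjusted p = 3.4e-07), with alternatives from -0.91 to -0.61, and the 2-fold test was not passed.

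Nr3c2 encodes the mineralocorticoid receptor, which in hippocampal neurons binds corticosterone with high affinity (ENSMUSG00000031618, protein coding, chr8:76899442-77245012, plus strand). It stood at 53.8, 47.7, 53.8 and 50.1 CPM in brain libraries 1 to 4 and at 3.80, 2.68, 2.54 and 3.17 in uterus libraries 1 to 4. The brain mean of 51.4 ± 2.996 CPM was 16.9 times the uterine mean of 3.05 ± 0.571 (SD, n = 4 each), a log2 difference of -4.07 ± 0.12 (SE, edgeR adjusted p = 3.6e-10). Its exons share 247 bases (3.82%) with Gm10649 on the opposite strand, not used here.

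Levels of different genes were compared as TPM, counts divided by the summed length of a gene's exons and scaled to the same total in each library. In brain the order of mean TPM was Pgrmc1 (588), Pgrmc2 (90.7), Nr3c1 (67.7), Nr3c2 (28.5), Pgr (12.8), Gper1 (4.63), Esr1 (1.41), Greb1 (1.07) and Esr2 (0.727). The ranges of Esr1 and Greb1 overlapped, as did those of Greb1 and Esr2. Both corticosteroid receptors thus stood above Pgr, Gper1, Esr1 and Esr2 in whole brain.

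In uterus the order was Pgrmc1 (329 TPM), Pgrmc2 (104), Esr1 (90.8), Pgr (81.5), Nr3c1 (37.1), Greb1 (12.8), Gper1 (2.39), Nr3c2 (1.68) and Esr2 (0.147). Pgrmc2 and Esr1 overlapped, and so did Esr1 and Pgr. Pgrmc1 led in both organs, at the 99.3rd percentile of all genes in brain and the 98.2nd in uterus. With the length of the longest transcript in place of all exons, Esr1 rose to 150 TPM in uterus and stood above Pgrmc2 at 85.8, so the place of Esr1 in the order rests on the gene model.

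**Figure D4:**
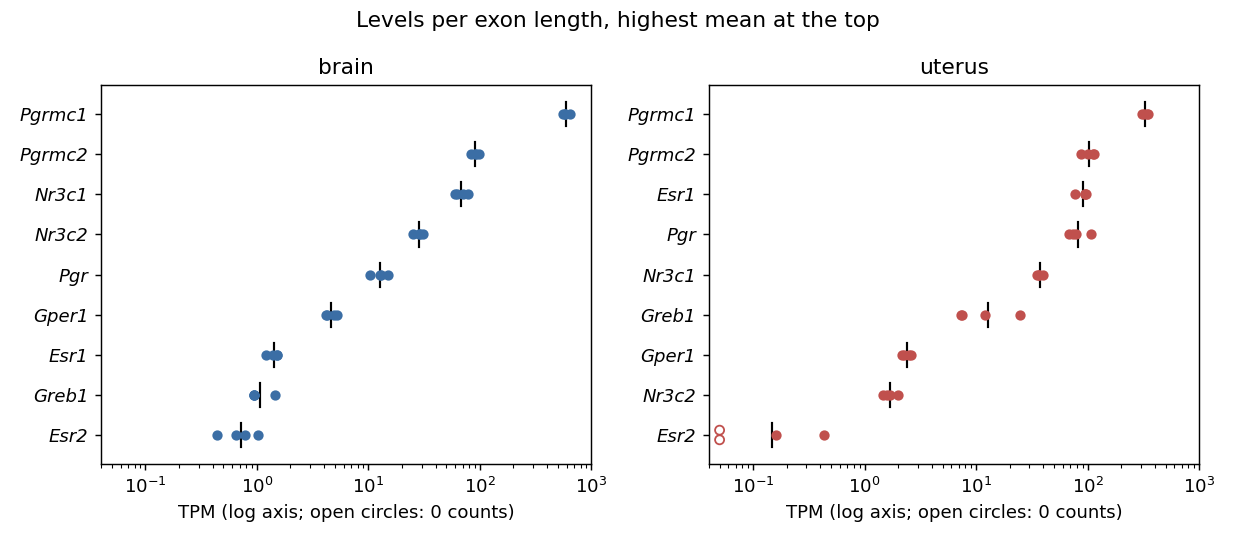
TPM of the 9 genes (log axis), 1 point per library with the mean as a bar, ordered by mean within each organ, open circles for 0 counts. Esr1 moves from 1.41 TPM in brain to 90.8 in uterus, while Pgrmc1 is the highest of the 9 in both organs.

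Ratios of counts within a library need no scaling between organs, and gene length cancels when the same ratio is compared across organs. For 7 pairs the log2 ratio (0.5 added to each count) was compared by a two-sided exact permutation test over the 70 splits of 4 against 4. The organs did not overlap in any pair. Each gave an exact p of 0.0286, which was 0.0286 after adjustment over the 7 pairs and is the smallest these splits can give.

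Esr1 over Esr2 had mean log2 count ratios of 3.01 in brain and 12.56 in uterus. Its uterine value ran from 9.77 to 14.77 and rests on Esr2 libraries with 0 counts, and with 2 added to each count the difference of 9.54 became 8.51. Esr1 over Gper1 went from 0.72 to 7.67. Pgr over Esr1 turned from 2.49 in brain to -0.85 in uterus, so Pgr gave more reads than Esr1 in all 4 brains and fewer in all 4 uteri, while per length Pgr was above Esr1 in brain. In uterus their TPM overlapped with lengths from all exons, and with the longest transcript Esr1 was at 150 and Pgr at 77.7. Greb1 over Esr1 was -0.94 in brain and -3.52 in uterus, so Greb1 was lower relative to Esr1 in uterus than in brain.

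Pgr over Pgrmc1 rose from -3.33 in brain to 0.17 in uterus, where single libraries ran from -0.18 to 0.53. Pgrmc1 over Pgrmc2 fell from 1.89 to 0.87. Nr3c1 over Nr3c2 went from 1.49 in brain to 4.71 in uterus, that is from 2.81 to 26.0 glucocorticoid receptor counts for each mineralocorticoid receptor count.

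Genes whose pattern over the 8 libraries was most like each receptor were found by the root mean square difference of log2 CPM centred on each gene. For Esr1 these were Ppic (0.13), Col15a1 (0.14) and Tpm2 (0.15), and for Pgr they were Ctsd (0.14), Atad2 (0.17) and Dse (0.18). For Greb1 they were Ngfr (0.31), Akr1c14 (0.34) and Stat5a (0.34). Nr3c2 was nearest to Fez1 (0.09), A730017C20Rik (0.12) and Got1 (0.12), and Esr2 to Slc7a11 (0.60), Chst8 (0.63) and Nrg1 (0.65). For Nr3c1 the nearest were Ccdc88a, Trim44 and Hs3st1, for Pgrmc1 Trappc11, Otud6b and Rab3gap2, for Pgrmc2 Fndc3a, Ythdc1 and Ccnk, and for Gper1 Unc119, Dusp18 and Kctd17. With 2 organs, this likeness is mostly a like difference between them.

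Beside the receptors, 8 lists of related genes were followed, and the median over all genes tested was 0.01, against which each list's median can be read. Of all genes tested, 43.5% were higher in uterus and 43.6% higher in brain. List counts near these shares are no result about a list. The lists also share genes, so their counts are not independent. Fkbp5 is in the chaperone, progesterone-induced and glucocorticoid-induced lists. Nr2f2 is in the list of other receptors and the progesterone-induced list, and Nrip1 in the coactivator and oestrogen-induced lists. Among the steroid-converting enzymes, those that act on corticosterone went opposite ways. Hsd11b2, which inactivates corticosterone and so shields the mineralocorticoid receptor, was at 245, 260, 189 and 331 CPM in uterus libraries 1 to 4 and at 0.0270, 0.138, 0.346 and 0.189 in brain, a log2 difference of 10.45 ± 0.32 (SE, edgeR adjusted p = 4.5e-10). Hsd11b1, which regenerates corticosterone, went the other way at 24.5 ± 1.03 CPM in brain and 3.68 ± 0.451 in uterus (SD, n = 4 each). H6pd, which supplies NADPH to Hsd11b1, was higher in uterus (123 ± 31.9 against 12.9 ± 0.543 CPM). So the uterus, low in Nr3c2, was high in the inactivating enzyme, and the brain, high in Nr3c2, held 0.175 ± 0.133 CPM of it. Of the 9 tested genes of this list 5 rose in uterus and 2 fell, with a median of 0.49, and Hsd17b1 and Akr1c18 did not pass. With library totals alone 6 rose and 1 fell.

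Among 14 oestrogen-induced genes 9 rose in uterus, 1 fell and 4 (Ltf, Nrip1, Fos and Lcn2) did not pass, with a median log2 difference of 1.68. C3, the complement component, reached 266 ± 97.0 CPM against 1.73 ± 0.399 in brain (7.27 ± 0.34). Sprr2f, an epithelial cornified envelope gene, had 0 counts in brain, while uterus libraries 1 to 4 held 12.6, 2.56, 7.89 and 60.9 CPM. Against 3 counts over the 4 brains it was at least 1161-fold higher in uterus, and at least 425-fold higher when uterus library 4 was left out. Wnt4, a ligand of stromal decidualization, was the 1 that fell (-0.46 ± 0.17, edgeR adjusted p = 0.0247). That call was lost in 5 of 16 alternatives: upper-quartile scaling (-0.21), library totals alone (-0.20), and leaving out the third brain library (-0.42), the fourth brain library (-0.40) or the first uterus library (-0.44).

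Among 15 progesterone-induced genes 14 rose in uterus and 1, Calca, did not pass, with a median of 5.13. Both this list and the oestrogen-induced one were chosen with earlier results of these data known. Their counts therefore do not measure a response to progesterone or oestrogen. Hand2, the stromal transcription factor that restrains oestrogen action on epithelium, had 0 counts in brain while uterus libraries 1 to 4 held 87.5, 88.0, 70.4 and 60.9 CPM, at least 4244-fold more. Hoxa10, needed for implantation, was at 364 ± 33.3 CPM in uterus against 4 counts over all brains. Both are genes of uterine stroma, and the summed stroma markers differed in the same direction. Hoxa10 and Hoxa11 are in both that sum and this list, so the likeness is partly built in, and Hand2 is not in the sum. The part of cell makeup in these lists was not tested.

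Among 13 glucocorticoid-induced genes 4 rose in uterus, 6 fell and 3 (Tsc22d3, Mt2 and Ddit4) did not pass, with a median of -0.10. Errfi1, an inhibitor of the EGF receptor, and Nfkbia, an inhibitor of NF-kappaB, rose to 186 ± 40.5 CPM from 44.0 ± 1.97 and to 86.2 ± 20.7 from 21.6 ± 2.09. Klf9, a transcription factor also induced by thyroid hormone, and the clock gene Per1 were lower in uterus (-1.47 ± 0.06 and -0.84 ± 0.13) and were singled out after their values were seen. With library totals alone the list counted 6 higher and 3 lower, with all genes shifted alike: its median lay below that of all genes by the same amount in both fits (-0.12 and -0.12).

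Chaperones hold unbound receptors ready for hormone. Of 12 chaperones 8 rose in uterus, 3 fell and St13 did not pass (median 0.40). With library totals alone 9 rose and 1 fell, and the median minus that of all genes was 0.39 in both fits. Ptges3, the p23 cochaperone, was 223 ± 34.8 CPM in uterus and 96.2 ± 7.01 in brain, and Fkbp4, the immunophilin needed for uterine progesterone response, was 344 ± 24.0 and 164 ± 6.81. Hsp90aa1, the inducible HSP90, went the other way at 1514 ± 68.0 CPM in brain and 880 ± 107 in uterus (-0.78 ± 0.09).

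Of 12 coactivators and corepressors 3 rose in uterus, 7 fell and Ep300 and Nrip1 did not pass (median -0.16). With library totals alone 6 rose and 4 fell, while the list's median minus that of all genes was -0.17 in both fits. Ncoa1, a p160 coactivator, was lower in uterus in every alternative (42.4 ± 1.27 against 156 ± 4.23 CPM, -1.88 ± 0.04), as was its relative Ncoa2 (-0.84 ± 0.07). Med1, the Mediator subunit that contacts nuclear receptors, was higher in uterus (0.38 ± 0.07).

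Of 7 other steroid and oestrogen-related receptors 3 rose and 4 fell (median -1.36). The orphan receptor Esrrg was at 65.8 ± 4.09 CPM in brain and 0.347 ± 0.112 in uterus (-7.56 ± 0.15), and Esrrb at 6.45 ± 0.979 and 0.0674 ± 0.0848. Nr2f2, the stromal factor COUP-TFII, rose to 208 ± 13.9 CPM from 26.9 ± 1.10 (2.95 ± 0.06).

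The list of membrane progestin receptors and MAPR relatives also held Serbp1, Tmem97 and Cyp51, which belong to neither family. Of its 10 genes 3 rose in uterus, 6 fell and Paqr5 did not pass (median -0.73). Those that rose were Nenf (0.64), Serbp1 (0.71) and Tmem97, and those that fell were Paqr6, Paqr7, Paqr8, Paqr9, Cyb5d2 and Cyp51. Paqr9 was at 85.9 ± 1.64 CPM in brain and 0.544 ± 0.331 in uterus (-7.28 ± 0.23), and Paqr7, membrane progestin receptor alpha, at 80.9 ± 6.23 and 7.49 ± 1.38. Tmem97, the sigma-2 receptor, which binds Pgrmc1 at the membrane, was higher in uterus (1.19 ± 0.09).

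**Figure D5:**
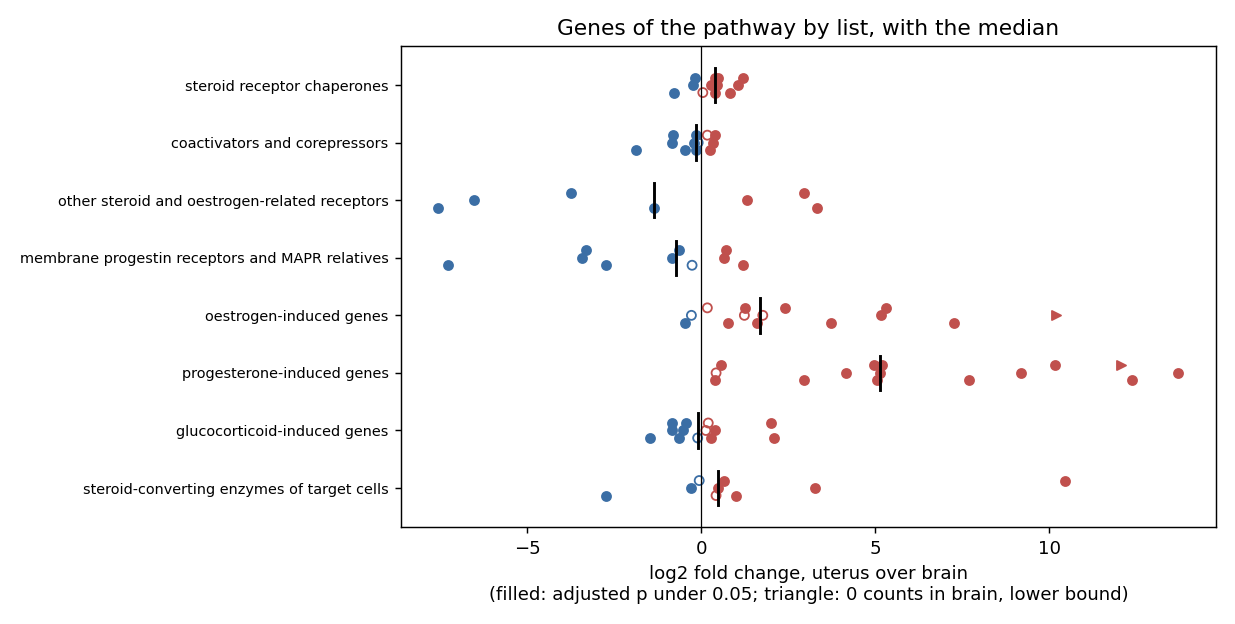
Log2 difference, uterus over brain, of each tested gene of the 8 lists, with filled points for genes past the edgeR threshold, triangles for lower bounds of genes with 0 counts in brain, and a bar at the list's median. Progesterone-induced genes centre on 5.13 and coactivators on -0.16.

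The oestrogen response element (the arms GGTCA and TGACC with 3 bases of any kind between them) and the element shared by glucocorticoid and progesterone receptors (GNACA and TGTNC, likewise spaced) were searched on both strands in the 250 bases upstream of 10 annotated starts of 8 of the genes. Nr3c1, the glucocorticoid receptor gene, was not among these 8. Neither element was found at the 10 starts, and over all 32851 promoters they were found in 0.0639% and 0.387%. The single arm GGTCA, which is also part of the full oestrogen element, was found at 4 of the 10 starts (that of Esr2, that of Nr3c2 and both of Greb1), against 35.2% of all promoters. Its matches upstream of Greb1, the oestrogen-responsive gene of the set, and of Esr2 are shown as 30-base windows 5′ to 3′ on the gene's minus strand, with the arm in capitals (TGACC when read on the other strand).
Greb1, chr12:16757416-16757445: tcctaccaggcgGGTCActggggattgaat
Greb1, chr12:16757307-16757336: gatttcaggaagGGTCActtatggtgggtg
Greb1, chr12:16800957-16800986: ccaagcaacaaaTGACCtctgtccccggag
Esr2, chr12:76177480-76177509: ccctggggatctGGTCAgaaattcccattc
Esr2, chr12:76177317-76177346: ctcccggtttgtGGTCAcgtgggcttctca
The 3 Greb1 matches fall before 2 different starts, 194 and 85 bases upstream of the inner one and 88 bases upstream of the outer one. Those of Esr2 lie 238 and 75 bases upstream. These are matches of letters, not measured binding.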

How the data were processed

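The authors deposited raw counts per gene (whole numbers, not normalized) for 4 brain and 4 uterus libraries. The submitters' processing notes name FastQC, HISAT2 2.0.3, featureCounts, edgeR and the build GRCm38.p5. No source used here gives the annotation release, the strand setting or the treatment of multimapped reads. Counts were analysed in R 4.3.3 with edgeR 4.0.16 (TMM, filterByExpr by organ, quasi-likelihood F test, two-sided, adjusted p under 0.05; glmTreat for 2-fold), with limma 3.58.1 and DESeq2 1.42.0 as alternatives, and in Python 3.11.15. SE is that of the log2 difference. Lengths came from GENCODE M21 (99.6% of genes). A count of 0 allows 3 counts; reads lack molecular identifiers, so such limits cover counting error only. The code was tested on simulated data. From each of the 8 lists the text names the 2 called genes of at least 1 CPM with the largest change and the 1 with the largest change in the direction opposite to the list's median; other genes, including those that did not pass, were named after their values were seen. Nearest genes had a mean of at least 5 CPM. Members and lists were chosen with earlier results of these data known. Library numbers shared by both organs did not pair the samples. Sts of the enzyme list was not matched, and 3 enzymes did not pass the filter.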

Additional observations from a re-analysis of the deposited data

Results flagged for a closer look

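Within organs, 4 of the 78 groups of 4 libraries checked held a library whose gap to the nearest other, as a share of the whole range, passed the 95% critical value of Dixon's test, and chance gives about 1 in 20. Greb1 in brain had a gap of 0.836 of the range, from library 4 at 3.78 CPM against 2.40 to 2.63 in the others. The log2 count ratio of Pgr over Pgrmc1 in brain had a gap of 0.856, with library 4 at -3.61 against -3.27 to -3.21. The ratio of Esr1 over Gper1 in brain had a gap of 0.909, with library 1 at 0.96 against 0.62 to 0.65. Hsp90aa1 in brain had a gap of 0.921, with library 4 at 1413 CPM against 1542 to 1554. Brain library 4 was the distant one in 3 of the 4.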

How the results depend on the processing

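Of 143 alternative values of the 9 genes' differences, 142 kept direction and call, 0 reversed and 1, Esr2 without brain library 4, lost its call. Esr2 was removed by a filter of 1 CPM. Medians changed sign for 2 lists, coactivators and corepressors (0.10 with library totals and 0.10 with upper-quartile scaling) and glucocorticoid-induced genes (0.15 and 0.15), under scalings that shift the median of all genes from 0.01 to 0.27. Against that median both lists stayed where they were (-0.17 and -0.12). The number of genes called stayed between 13133 and 14781, split 8182 higher and 5966 lower in uterus with upper-quartile scaling, and a replicate block on library number gave 13846 against 13989, with 9 of the 9 genes called in both. Same-numbered libraries correlated at -0.05 to 0.08 in their deviations, and 2 of 4 brain libraries correlated best with their own number. Mean TPM moved by more than the spread between libraries for 11 of 18 gene and organ values with the longest transcript's length, and for 17 of 18 with RPKM, which is on another scale. Depth limits Esr2 in uterus. Organ and its cell makeup cannot be told apart.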
